A study of Mus musculus and Macaca nemestrina with 20 samples.

Results

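Transcripts of the JAK-STAT3 pathway were examined in dorsal root ganglia (DRG), the clusters of sensory neuron cell bodies beside the spinal cord, by bulk RNA sequencing. The set comprised 10 genes picked by symbol. They are the kinases Jak1 and Jak2, the transcription factors Stat3 and Stat6, the feedback inhibitors Socs3, Socs1, Socs2 and Cish, and the STAT3 target genes Sbno2 and Lrg1. All 10 were found among 29766 mouse genes and, under the same symbols in capitals, among 35194 genes of the pig-tailed monkey. The genes were picked with earlier results of the mouse comparison in view, so their differences between mouse genotypes below are descriptions. Where such a difference is said to be called (adjusted p under 0.05 over all genes), this describes the fit and is no independent test. The mouse arm held 7 libraries labelled ADAM17 KO (knockout) and 7 labelled ADAM17 flox as controls; ADAM17 is a membrane protease that sheds cytokines, growth factors and cytokine receptors. Batch 1 held knockout libraries 1 to 4 and flox libraries 1 to 3, and batch 2 held knockout libraries 5 to 7 and flox libraries 4 to 7. The monkey arm held 3 libraries of DRG supplying skin that had received SADBE (squaric acid dibutyl ester, which sensitises skin on contact) and 3 supplying vehicle-treated skin. The Cre driver, the deleted exons, the age, strain and sex of the mice, the SADBE dose and timing and the number of animals behind a library are not given in the sources used here. All p-values therefore measure the spread between libraries.

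In this pathway a cytokine receptor brings together kinases of the JAK family, which phosphorylate the receptor and the STAT proteins bound to it. Phosphorylated STATs pair, enter the nucleus and switch on target genes, among them SOCS genes and Cish, whose products bind the receptor or the kinases and shut the signal off. Cytokines of the interleukin 6 family signal through the shared chain gp130 to STAT3, and interleukin 4 and interleukin 13 signal to STAT6. In sensory neurons STAT3 is known for its part in the response to axon injury, and JAK1 is a target of drugs given for itch. Transcript levels do not measure phosphorylated STAT protein.

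STAT dimers bind the palindrome TTCNNNGAA, which reads the same on both strands. The promoter stretches that hold these letters are shown because they belong to members that differed widely between genotypes, Socs3 and Sbno2, and to a member that was not called, Cish. RefSeq windows of GRCm38.p6, covering 250 bases before and 50 bases after an annotated start, were matched by symbol for 9 of the 10 members, with 11 windows in all. The motif was present in 4 of these windows, which belong to 3 members, Socs3, Cish and Sbno2. Among 32851 windows of the same 300 bases, 8.3% held it. The sequences below run 5' to 3' on the gene's strand with the motif in capitals. The Socs3 stretch (chr11:117969367-117969616, minus strand) ends just before the RefSeq start, and its match begins 154 bases upstream of that start. This start lies at 117969366, upstream of the GENCODE protein-coding transcript's start at 117969186, so the bases nearest to the latter start are not in the window. The Cish stretch (chr9:107296654-107296683, plus strand) holds 2 matches, the first beginning at the start itself and the other 11 bases further on. For Sbno2, RefSeq gives several starts. The stretch of the first (chr10:80102709-80102738, minus strand) has a match beginning 26 bases upstream, and that of the second (chr10:80101188-80101437, minus strand) has a match beginning 24 bases upstream.
Socs3: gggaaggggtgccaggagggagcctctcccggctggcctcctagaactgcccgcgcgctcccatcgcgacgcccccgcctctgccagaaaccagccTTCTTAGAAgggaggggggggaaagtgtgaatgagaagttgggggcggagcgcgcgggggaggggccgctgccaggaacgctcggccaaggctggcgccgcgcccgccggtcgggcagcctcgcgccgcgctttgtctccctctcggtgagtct
Cish: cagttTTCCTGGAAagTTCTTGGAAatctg
Sbno2 start 1: gccgcgccccTTCGCAGAAgcggaagtgcg
Sbno2 start 2: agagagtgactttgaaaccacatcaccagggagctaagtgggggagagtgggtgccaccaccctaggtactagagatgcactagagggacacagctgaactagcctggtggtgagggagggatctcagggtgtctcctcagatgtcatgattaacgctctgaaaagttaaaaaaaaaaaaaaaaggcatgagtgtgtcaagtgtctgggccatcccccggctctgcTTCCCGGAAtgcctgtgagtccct
The same letters with 1 more base between TTC and GAA, the form preferred by STAT6, was present in 6.95% of all windows and in 0 of the 11 member windows. TTCNNNGAA itself was not in the windows of Socs1, Jak1, Jak2, Stat3, Stat6 or Lrg1, nor in that of the third Sbno2 start. These matches are letters in a window, and no binding was measured.

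Library totals ran from 12.1 to 14.7 M (M, 1000000) estimated counts in knockout and from 46.9 to 52.1 M in flox libraries of batch 1, so that there depth and genotype cannot be told apart. They were 27.9 to 30.8 and 30.9 to 36 M in batch 2, and 9.02 to 27.1 M in monkeys. Mitochondrial transcripts took 8.21% to 10.9% of counts in batch 1, and in batch 2 they took 0.734% to 1.03% in knockout against 1.4% to 1.76% in flox libraries. Adam17 transcripts were not called, with a log2 fold change of 0.03 ± 0.18, and as the deleted exons are not given this does not check the genotype. Transcripts of all 8 DRG neuron markers were detected in every mouse library. Of the markers of other cell types, 9 of 10 neutrophil genes were higher in knockout libraries by edgeR's quasi-likelihood test (adjusted p under 0.05 over all genes). Of all genes tested 15.5% were called, 7.97% higher and 7.51% lower. Lower were 5 of 6 Schwann cell and 5 of 6 fibroblast genes, while 0 of 8 macrophage, 0 of 7 endothelial, 0 of 5 erythroid and 0 of 6 skeletal muscle genes were called. Erythroid and muscle sums nonetheless differed widely between libraries. Erythroid markers summed to 2740 to 86200 TPM in knockout and 2240 to 26000 TPM in flox libraries, the highest in knockout library 4. Skeletal muscle markers summed to 6.91 to 2240 TPM in knockout and 32.5 to 4170 TPM in flox libraries. Of satellite glia markers 1 of 5 was higher, Cdh19, and of spinal cord markers 1 of 6 was lower, Mag. Given the shares of all genes called, nothing is read from these single calls. Satellite glia markers summed to 5950 to 6910 TPM in knockout and 4400 to 4970 TPM in flox libraries of batch 2, and to 3150 to 4730 and 2720 to 3340 TPM in batch 1. These genes did not move together. The log2 fold change of Fabp7 was -0.49 ± 0.35 in batch 1 and 1.92 ± 0.36 in batch 2. In batch 2 it was -0.67 for Kcnj10 and -0.28 for Glul, against 0.69 for Cdh19 and 0.19 for Apoe. Of the 8 neuron markers 3 were higher, namely Isl1, Tubb3 and Prph. Neuron markers summed to 1580 to 2570 TPM in knockout and 930 to 1800 TPM in flox libraries of batch 1. In batch 2 these sums were 3960 to 5640 and 2990 to 3980 TPM. In bulk tissue, fewer cells of a type and less RNA per cell cannot be told apart.

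The order of the members' levels is given in TPM (a share of all transcripts, scaled for transcript length), as mean ± SD over the 4 flox libraries of batch 2. Stat3 stood highest at 44 ± 5.99 TPM, followed by Jak1 at 38.9 ± 5.82, Stat6 at 33.9 ± 6.76 and Socs2 at 29.7 ± 2.73 TPM. A gap separated these from the other 6. Cish stood at 7.03 ± 1.62, Lrg1 at 6.73 ± 2.54 and Socs3 at 4.47 ± 0.884 TPM. The lowest levels were those of Sbno2 at 2.73 ± 0.769, Jak2 at 1.96 ± 0.682 and Socs1 at 1.08 ± 0.515 TPM. Only the step from Socs2 to Cish separated neighbours in this order without overlap between libraries. In these 4 libraries transcripts of the kinase JAK1 and the 2 STAT factors were thus abundant, and all feedback inhibitors except Socs2 were low. The gap was absent in the 3 flox libraries of batch 1, where Lrg1 ran from 11.7 to 18.4 TPM and Stat6 from 17.9 to 24 TPM. The lowest means there were those of Socs3 at 2.61 ± 0.841 and Sbno2 at 2.64 ± 0.223 TPM.

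In knockout ganglia, the feedback inhibitor Socs3 and the target genes Sbno2 and Lrg1 stood about 4-fold, 5.6-fold and 6.4-fold above flox, Socs2 stood about 2-fold above, and Jak1 and Stat3 were higher by less than 2-fold. Socs1, Cish, Jak2 and Stat6 were not called. In all, 6 of 10 members passed an adjusted p under 0.05, each of them higher in knockout, where 15.5% of all genes tested were called with 7.97% higher and 7.51% lower. Because this contrast chose the members, nothing is read from that count. The values below are counts scaled to library size with TMM factors (CPM), which compare libraries for 1 gene, and differences are log2 fold changes of knockout over flox ± SE from a fit with batch as a term. A range over batches, where given, comes from fits within each batch.

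**Figure D1:**
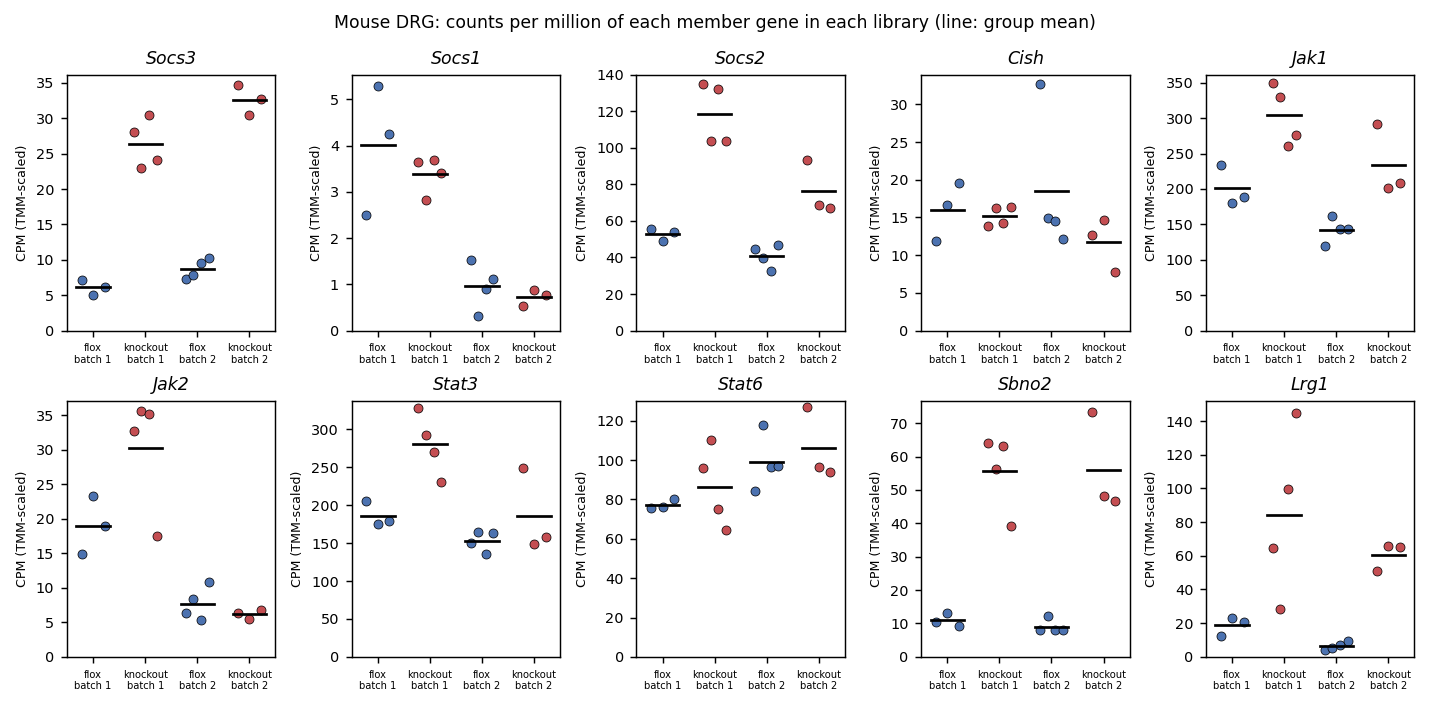
TMM-scaled CPM (y axis) of the 10 members in each of the 14 mouse libraries, by genotype and batch (x axis), with points for libraries and bars for group means. Socs3, Socs2, Sbno2 and Lrg1 show every knockout point above every flox point, whereas the levels of Jak2 and Socs1 are set apart by batch more than by genotype.

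Jak1 encodes the kinase bound to gp130 and to most cytokine receptors that act on STAT3 or STAT6. Its gene lies on chromosome 4 (101152367 to 101265282, minus strand, GRCm38). Knockout libraries 1 to 4 held 350, 330, 261 and 276 CPM of Jak1, and flox libraries 1 to 3 held 234, 180 and 188 CPM. In batch 2, knockout libraries 5 to 7 held 291, 201 and 208 CPM and flox libraries 4 to 7 held 120, 162, 143 and 144 CPM. Within each batch every knockout library lay above every flox library, although the lower knockout values of batch 2 fell below the highest flox value of batch 1. The log2 fold change was 0.66 ± 0.12, which was 0.57 ± 0.16 within batch 1, where it was not called, and 0.72 ± 0.16 within batch 2.

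Jak2, the kinase of growth hormone, erythropoietin and interferon gamma receptors that also acts at gp130, lies on chromosome 19 (29251828 to 29313080, plus strand). Jak2 ranged from 14.9 to 35.6 CPM in batch 1 and from 5.35 to 10.9 CPM in batch 2, so its level differed between batches without overlap. The genotypes overlapped in both batches. Its log2 fold change was 0.19 ± 0.23, made up of 0.64 ± 0.26 in batch 1 and -0.30 ± 0.29 in batch 2. The direction was therefore opposite in the 2 batches, with neither value called.

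Stat3, the transcription factor on which the interleukin 6 family converges, lies on chromosome 11 (100885098 to 100939540, minus strand). In batch 1, Stat3 stood at 328, 292, 270 and 231 CPM in knockout and 205, 175 and 179 CPM in flox libraries. In the other batch it stood at 249, 149 and 158 CPM in knockout and 150, 164, 136 and 163 CPM in flox libraries. The genotypes were apart in batch 1, whereas in batch 2 only knockout library 5 lay above the flox range. The log2 fold change was 0.43 ± 0.13, with 0.56 ± 0.15 in batch 1 and 0.28 ± 0.18 in batch 2, and neither batch gave a call on its own. The call was lost when any of 8 libraries was left out, namely knockout libraries 1, 2, 3 and 5 and flox libraries 2, 3, 4 and 6, with log2 fold changes of 0.34 to 0.51 over all 14 such fits. Stat6, the factor downstream of interleukin 4 and interleukin 13, lies on chromosome 10 (127642986 to 127660957, plus strand). Stat6 ranged from 64.7 to 127 CPM in knockout and from 75.6 to 118 CPM in flox libraries, ranges that overlapped almost wholly. Its log2 fold change was 0.13 ± 0.12, and 0.13 ± 0.19 and 0.10 ± 0.16 within batches 1 and 2.

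Socs3, the inhibitor that binds gp130 and JAK kinases and ends STAT3 signalling, lies on chromosome 11 (117966079 to 117970047, minus strand). Socs3 stood at 28, 23, 30.5 and 24.1 CPM in knockout libraries 1 to 4 and at 7.21, 5.07 and 6.13 CPM in flox libraries 1 to 3. In batch 2, knockout libraries 5 to 7 held 34.7, 30.5 and 32.7 CPM, and flox libraries 4 to 7 held 7.27, 7.83, 9.51 and 10.2 CPM. The lowest knockout library was more than 2-fold above the highest flox library, across batches. Knockout exceeded flox by a log2 fold change of 2.00 ± 0.13, or 4.01-fold, with 2.08 ± 0.19 in batch 1 and 1.91 ± 0.18 in batch 2.

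Socs2, an inhibitor best known for restraining growth hormone signalling through STAT5, lies on chromosome 10 (95385362 to 95417180, minus strand). Socs2 stood at 135, 104, 132 and 104 CPM in knockout and 55.8, 49 and 53.8 CPM in flox libraries of batch 1. In batch 2, knockout libraries held 93.3, 68.5 and 67 CPM and flox libraries held 44.7, 39.5, 32.5 and 47.1 CPM. All knockout libraries lay above all flox libraries. This gave a log2 fold change of 1.03 ± 0.12, with 1.14 ± 0.15 in batch 1 and 0.90 ± 0.17 in batch 2.

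The remaining feedback inhibitors did not share this separation. Socs1, which blocks JAK kinases downstream of interferons and interleukin 4, lies on chromosome 16 (10782240 to 10785536, minus strand). It was scarce, with 11 to 284 estimated counts a library, and ranged from 2.51 to 5.29 CPM in batch 1 and from 0.324 to 1.53 CPM in batch 2, with the knockout values inside the flox range in each batch. Its log2 fold change was -0.33 ± 0.32. Cish, a STAT5-induced inhibitor, lies on chromosome 9 (107296026 to 107302784, plus strand). Cish ranged from 7.73 to 16.4 CPM in knockout and from 11.9 to 32.7 CPM in flox libraries, with a log2 fold change of -0.37 ± 0.23, and -0.11 ± 0.21 and -0.65 ± 0.36 within batches 1 and 2. The highest value belonged to flox library 4, and the next highest flox library held 19.6 CPM.

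Sbno2, a STAT3-induced nuclear co-regulator first described in interleukin 10 signalling, lies on chromosome 10 (80056992 to 80105571, minus strand). Sbno2 stood at 64.1, 56.4, 63.2 and 39.1 CPM in knockout and 10.5, 13.1 and 9.26 CPM in flox libraries of batch 1. In the other batch it stood at 73.4, 48.1 and 46.8 CPM in knockout and 8.14, 12.2, 7.93 and 8.03 CPM in flox libraries. Even the lowest knockout library, number 4, lay far above the highest flox library. Its log2 fold change was 2.49 ± 0.17, or 5.60-fold, with 2.31 ± 0.22 in batch 1 and 2.64 ± 0.23 in batch 2.

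Lrg1, a secreted glycoprotein of the acute phase that modulates transforming growth factor beta signalling, lies on chromosome 17 (56119678 to 56122001, minus strand). Lrg1 stood at 64.9, 28.5, 99.6 and 145 CPM in knockout and 12.6, 23.3 and 20.5 CPM in flox libraries of batch 1. In the other batch it stood at 50.8, 65.7 and 65 CPM in knockout and 4.35, 5.39, 6.9 and 9.61 CPM in flox libraries. The groups did not overlap, but in batch 1 knockout library 2 came close to the flox range and the knockout libraries spread widely. The log2 fold change was 2.68 ± 0.33, or 6.40-fold, with 2.13 ± 0.52 in batch 1, where it was not called, and 3.21 ± 0.26 in batch 2.

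**Figure D2:**
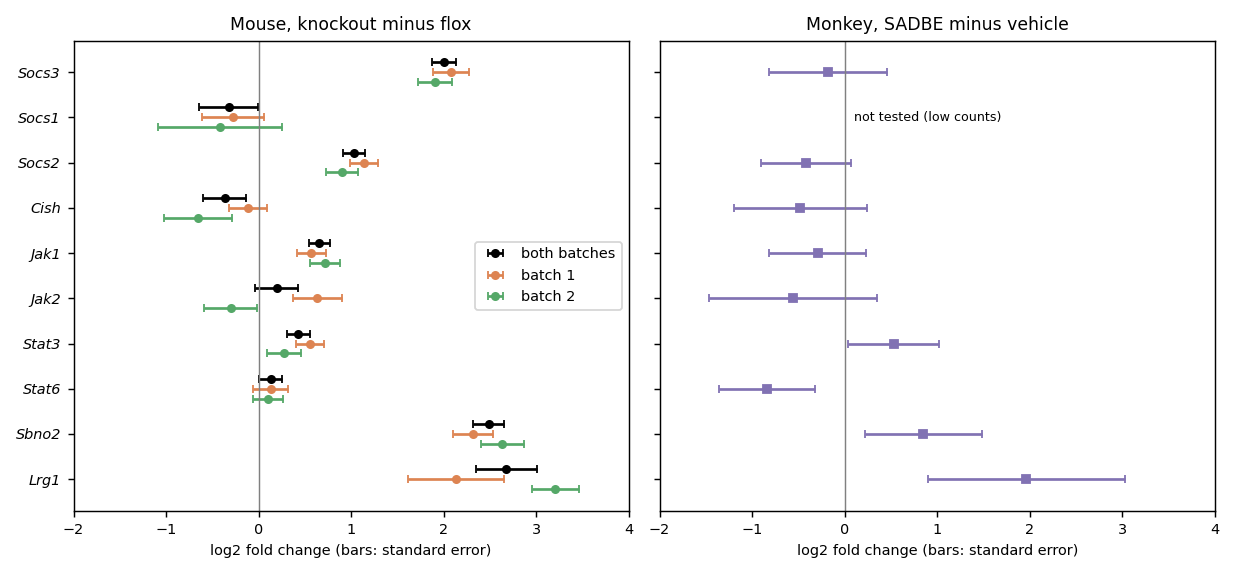
Log2 fold change (x axis) with standard error for each member (y axis), for mouse knockout over flox on the left, in both batches and within each, and for monkey SADBE over vehicle on the right. In mice Socs3, Sbno2 and Lrg1 lie near 2 or above and Jak2 changes side between batches, while the monkey bars are several times wider.

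In batch 1 the genotypes did not overlap for Socs3, Socs2, Jak1, Stat3, Sbno2 and Lrg1. In batch 2 they did not overlap for the same genes without Stat3. Over all 14 libraries this held for Socs3, Socs2, Sbno2 and Lrg1, and for 0 members were flox libraries the higher ones. How often all genes separate in this way was not counted. This contrast also chose the members, so nothing is read from the number that separate. Fits within a batch called 3 members in batch 1 and 5 in batch 2, where 1.80% and 13.2% of genes were called. Whether the genotype difference itself changed between batches was tested as an interaction. The choice of members did not use this test. It had earlier mouse results in view, however, and so may have favoured genes alike in both batches. Of the 10 members 0 were called by edgeR's quasi-likelihood test, against 1.03% of all genes. An unadjusted p under 0.05 was held by 1 of the 10, beside 2169 of all 15654 genes tested, so nothing is read from that 1. DESeq2 gave the same counts of 0 and 1. That member was Jak2, whose log2 fold change was lower in batch 2 than in batch 1 by a difference of -0.98 ± 0.39 (edgeR's quasi-likelihood test, adjusted p = 0.258). For Lrg1 the difference was 1.04 ± 0.58 (adjusted p = 0.476) and for Socs3 it was -0.20 ± 0.25 (adjusted p = 0.819). The interval for Lrg1, from -0.21 to 2.28, leaves room for a large difference between batches, while that for Socs3, from -0.74 to 0.34, does not reach a 2-fold one.

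The neutrophil markers moved with genotype in the same libraries. Their summed level in batch 1 was 4880, 4760, 16300 and 5240 TPM in knockout libraries 1 to 4 and 533, 930 and 1750 TPM in flox libraries 1 to 3. The other batch had 2270, 1400 and 2490 TPM in knockout and 205, 132, 271 and 163 TPM in flox libraries, and none of the 10 markers was at 0 in any library. The sum was lower in batch 2 than in batch 1 within each genotype, without overlap. TPM sums are not on 1 scale in both batches, since the deposited columns add up, in units of 1000, to 602.5 to 836 in batch 1 and 957 to 982 in batch 2. The part of neuron, neutrophil, Schwann cell, satellite glia, fibroblast, erythroid or skeletal muscle content in the members' differences was not tested.

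**Figure D3:**
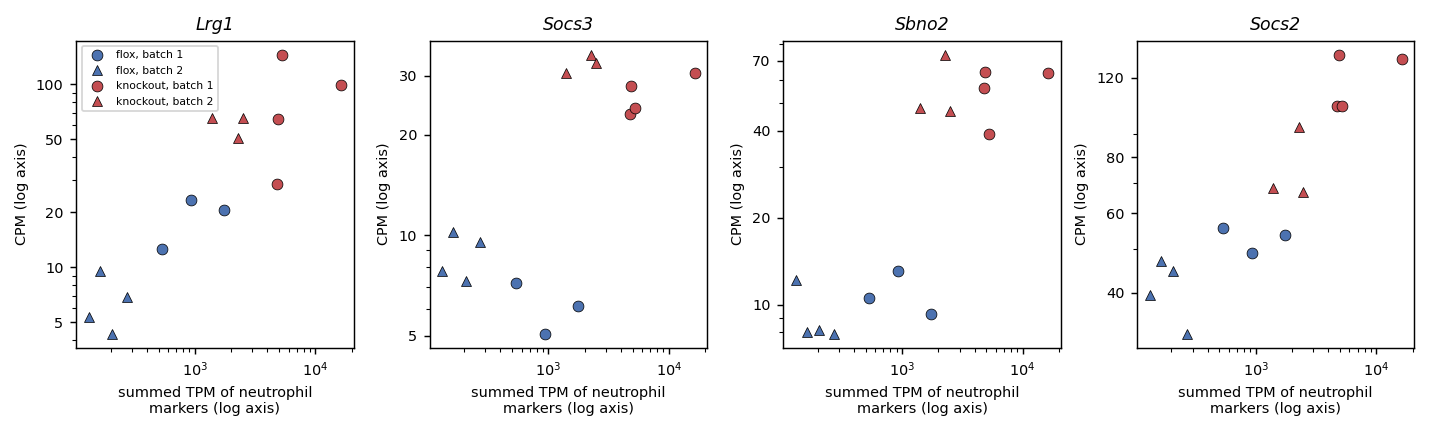
Level of Lrg1, Socs3, Sbno2 and Socs2 (CPM, log y axis) against the summed level of 10 neutrophil markers (TPM, log x axis), with 1 point for each of 14 mouse libraries, coloured by genotype and shaped by batch. Within each batch the knockout libraries lie to the right of the flox libraries and above them for all 4 genes.

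Genes with the pattern most like that of Socs3 were found from log2 CPM with each batch mean subtracted, by Pearson correlation over 14 libraries among 15653 other genes. The libraries share genotype, so the measure mainly ranks genes by how cleanly genotype separates them. The 5 highest were Fam210b (r = 0.990), Galnt6 (r = 0.983), Racgap1 (r = 0.981), Bdnf (r = 0.978) and Cyp26a1 (r = 0.978). Bdnf encodes a neurotrophin and Cyp26a1 an enzyme that breaks down retinoic acid. Spearman's rho for these 5 genes was 0.925, 0.833, 0.930, 0.886 and 0.882. Among the members Sbno2 came first (r = 0.958, rank 24), then Socs2 (r = 0.949, rank 43), Lrg1 (r = 0.888, rank 181), Jak1 (r = 0.878, rank 221) and Stat3 (r = 0.724, rank 896). Jak2 and Stat6 each had r = 0.26, and Socs1 and Cish had negative values of -0.24 and -0.44. With the mean of each genotype and batch removed, Socs3 had r = -0.006 with Sbno2 and 0.22 with Lrg1 over the same 14 libraries, whereas Jak1 and Stat3 had r = 0.825 and Stat3 and Sbno2 had r = 0.705. These correlations are descriptions, and the libraries share depth and tissue make-up.

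Other genes of the pathway were taken from lists of its parts, which were also drawn up with results of these data known. Of 115 such genes 106 were tested, and 38 were called by edgeR's quasi-likelihood test, 25 higher and 13 lower in knockout, where 15.5% of all genes were called. Nothing is read from that count, since the lists were not drawn up independently of it. For the same reason, the adjusted p-values printed below for listed genes in knockout against flox describe the fit and are not independent tests. Their median log2 fold change was 0.04, beside -0.01 for all genes tested. Within batch 1 alone 15 were called, where 1.80% of all genes were, and within batch 2 alone 28 were called, where 13.2% of all genes were.

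Among gp130 family ligands 1 of 6 tested was called, Il6, the founding cytokine of the family, with a median of -0.40 for the list. Il6 stood at 1.86 to 3.27 CPM in knockout libraries and from 0, in flox libraries 4 and 6, to 1.06 CPM in flox libraries, with a log2 fold change of 2.30 ± 0.67 (edgeR, adjusted p = 0.0306). That call rests on few reads, and it was lost without knockout library 3, 5 or 7 or flox library 3 or 7 (adjusted p up to 0.0636). Lif, Osm and Il27 were too scarce to test.

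Of 12 tested receptor genes upstream of STAT3, 2 rose and 2 fell, with a median of -0.02. Il31ra, the chain that binds interleukin 31, an itch cytokine, rose by a log2 fold change of 1.79 ± 0.24 (edgeR, adjusted p = 0.000156), and its partner chain Osmr, shared with oncostatin M, rose by 1.29 ± 0.17 (adjusted p = 0.000171). Il6st, which encodes gp130, fell, with a log2 fold change of -0.62 ± 0.11 (adjusted p = 0.00212). Egfr, the epidermal growth factor receptor, also fell, with -1.33 ± 0.27 (adjusted p = 0.00462). The call of Il6st was lost without the batch term, in batch 1 alone and on both log2 TPM scales (adjusted p up to 0.451), and Egfr was called in neither batch alone. The other 8 receptors were not called.

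Of 7 other JAK and STAT genes 1 was called, Jak3, the kinase of the common gamma chain in lymphoid cells, with a log2 fold change of 1.06 ± 0.30 (edgeR, adjusted p = 0.0277), and the list's median was -0.17. Its level was 1.79 ± 0.68 TPM in knockout and 0.82 ± 0.44 TPM in flox libraries (SD, n = 7), and the call was lost without knockout library 5 or 6 or flox library 3 or 7 (adjusted p up to 0.0665).

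Among 16 other negative regulators, 2 rose and 1 fell, with a median of -0.03. Ptpn1, a phosphatase that removes phosphate from JAK2 and TYK2, rose by 0.75 ± 0.10 on the log2 scale (edgeR, adjusted p = 0.000171). Ptpn1 stood at 67.1, 63.1, 78.2 and 86.3 CPM in knockout and 41.3, 44.6 and 38.4 CPM in flox libraries of batch 1, and at 56.2, 47.1 and 53.5 against 33.5, 27.8, 34.3 and 36.1 CPM in batch 2. No flox library reached any knockout library. Ptprc, the leukocyte phosphatase CD45 that can act on JAKs, rose by 0.94 ± 0.22 (adjusted p = 0.00956). Socs7, another member of the SOCS family, fell, with -0.81 ± 0.26 (adjusted p = 0.0459), a call that was lost in 10 of 14 fits leaving out 1 library, all but those without knockout library 1 or 4 or flox library 3 or 6 (adjusted p up to 0.110).

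**Figure D4:**
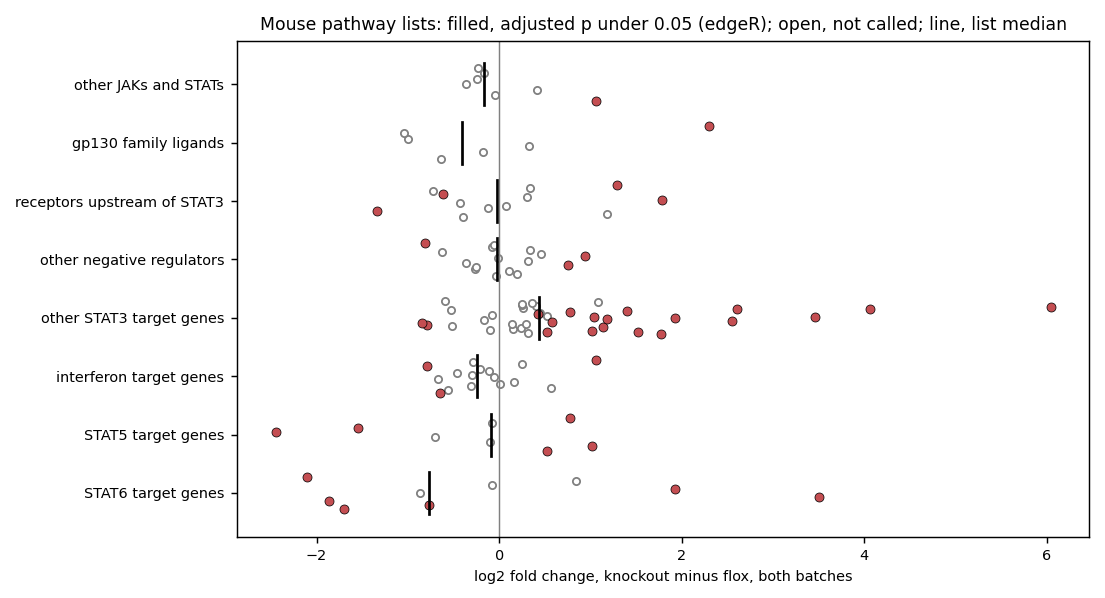
Log2 fold change of knockout over flox (axis of values) for each tested gene of the 8 lists of other pathway genes, with called genes filled and the list median marked. Called genes lie on both sides of 0 in 6 of the 8 lists, and 17 of 38 other STAT3 target genes are called higher, beside 7.97% of all genes. The lists were drawn up with results of these data known, so nothing is read from these counts.

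Other STAT3 target genes, the longest list, had 17 of 38 tested genes higher, 2 lower and 19 not called, with a median of 0.44. The acute-phase protease inhibitor Serpina3n, made by glia and neurons under stress, rose by a log2 fold change of 2.61 ± 0.18 (edgeR, adjusted p = 1.67e-07). Serpina3n stood at 448, 391, 400 and 299 CPM in knockout against 110, 56.1 and 52.7 CPM in flox libraries of batch 1, and at 772, 534 and 645 against 96.6, 103, 70.4 and 99.4 CPM in batch 2. The interleukin 4 receptor chain Il4ra rose by 1.93 ± 0.19 (adjusted p = 6.82e-06), and the survival kinase Pim3 rose by 1.40 ± 0.15 (adjusted p = 1.74e-05). Lcn2, an iron-binding acute-phase protein abundant in neutrophils, rose by 3.46 ± 0.35 (adjusted p = 1.78e-05). Sprr1a, a gene of injured sensory neurons, rose from 0.061 ± 0.081 to 4.79 ± 2.81 TPM (SD, n = 7), a log2 fold change of 6.04 ± 0.65 (adjusted p = 2.10e-05). Since flox libraries were near 0, the size of this fold depends on the scale, and it was 2.32 on that of log2(TPM + 1). The 2 lower genes were Gfap, a glial filament protein, at -0.84 ± 0.23 (adjusted p = 0.0230), and Fgl2, a secreted fibrinogen-like protein, at -0.79 ± 0.24 (adjusted p = 0.0386). Gfap lost its call when knockout library 5 was left out (adjusted p = 0.0585), and Fgl2 was not called in 8 such fits, those without knockout library 1, 2, 3 or 5 or flox library 2, 3, 6 or 7 (adjusted p up to 0.0972).

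Of 16 interferon target genes 1 rose and 2 fell, with a median of -0.24. Oasl2, an antiviral protein, rose by 1.06 ± 0.12 (edgeR, adjusted p = 4.01e-05), while the antiviral membrane protein Bst2 fell, with -0.65 ± 0.16 (adjusted p = 0.0126), and the ubiquitin-like Isg15 fell, with -0.80 ± 0.25 (adjusted p = 0.0394). The Isg15 call was lost in 11 of 14 fits leaving out 1 library, all but those without knockout library 4 or flox library 1 or 5 (adjusted p up to 0.0962). Among these lists the genotype difference changed between batches for Ifit1, an interferon-induced protein, whose log2 fold change was higher in batch 2 by 1.73 ± 0.35 (interaction, edgeR, adjusted p = 0.0264). It also changed for Ptprt, a receptor phosphatase that acts on STAT3, which was lower in batch 2 by a difference of -1.46 ± 0.33 (adjusted p = 0.0463). The number of such genes ran from 0 to 3 when any 1 library was left out, and it was 0 when that library was knockout library 1, 3, 6 or 7 or flox library 4 or 7.

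STAT5 target genes held 3 higher and 2 lower of 8 tested, with a median of -0.09, and 5 of the 9 listed are also on the STAT3 list. The 3 higher genes are all among those shared ones and so are counted in both lists, whereas the 2 lower genes are not on the STAT3 list. The repressor Bcl6 rose by 1.02 ± 0.21 (edgeR, adjusted p = 0.00464), the kinase Pim1 by 0.78 ± 0.22 (adjusted p = 0.0239) and the survival factor Bcl2l1 by 0.52 ± 0.17 (adjusted p = 0.0433). Igf1, insulin-like growth factor 1, fell from 32.4 ± 15.3 to 7.35 ± 5.58 TPM (SD, n = 7), a log2 fold change of -2.45 ± 0.37 (adjusted p = 0.000735), and Il2ra, the alpha chain of the interleukin 2 receptor, fell, with -1.55 ± 0.50 (adjusted p = 0.0453). Leaving out knockout library 5 or flox library 7 ended the call of Pim1 (adjusted p up to 0.0934). Bcl2l1 was not called in 10 such fits, all but those without knockout library 1 or 2 or flox library 1 or 6 (adjusted p up to 0.101). Il2ra was not called in 11, all but those without knockout library 4 or flox library 1 or 3 (adjusted p up to 0.125).

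STAT6 target genes were mixed, with 2 higher, 4 lower and 3 not called of 9 tested, and a median of -0.77. Besides Il4ra, Chil3, a chitinase-like protein of myeloid cells, rose by 3.51 ± 0.40 (edgeR, adjusted p = 6.11e-05). Retnla, a secreted protein of alternatively activated macrophages, fell, with -2.10 ± 0.44 (adjusted p = 0.00535), and Arg1, the arginase of the same cells, fell, with -1.70 ± 0.48 (adjusted p = 0.0267). The eosinophil chemokines Ccl11 and Ccl24 fell as well, with -0.77 ± 0.18 (adjusted p = 0.0111) and -1.86 ± 0.48 (adjusted p = 0.0161). Arg1 was not called without knockout library 5 or 6 or flox library 2, 3 or 4 (adjusted p up to 0.0730).

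In monkey ganglia, no difference between SADBE and vehicle was detected for any of the 9 members tested. edgeR's quasi-likelihood test called 0 of 9, with 0 at an unadjusted p under 0.05, and DESeq2 called 0 of 10 with 1 at an unadjusted p under 0.05. Of all 17988 genes tested 0% were called by edgeR. Levels in vehicle libraries are given in TPM as mean ± SD over 3 libraries. STAT3 stood at 47.5 ± 25.8, JAK1 at 22.7 ± 14.2, SOCS2 at 20.7 ± 2.74 and STAT6 at 20.3 ± 12.6 TPM, above CISH at 3.94 ± 0.631 TPM. SOCS3 stood at 1.94 ± 1.35, LRG1 at 1.41 ± 0.967, JAK2 at 1.33 ± 1.08, SBNO2 at 0.579 ± 0.266 and SOCS1 at 0.165 ± 0.0791 TPM. Only the steps from STAT6 to CISH and from SBNO2 to SOCS1 separated neighbours without overlap, and the order itself was not compared between species by a test.

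The members with the lowest p in monkeys were LRG1 and STAT6. LRG1 stood at 0.206, 1.09 and 1.75 CPM in vehicle libraries 1 to 3 and at 0.538, 7.53 and 3.69 CPM in SADBE libraries 1 to 3. SADBE libraries 2 and 3 lay above all vehicle libraries and SADBE library 1 among them. The log2 fold change of SADBE over vehicle was 1.96 ± 1.06, with a 95% interval from -0.46 to 4.38 (edgeR's quasi-likelihood test, adjusted p = 0.999). STAT6 stood at 74.7, 42.3 and 19.9 CPM in vehicle and 22.4, 27 and 27.3 CPM in SADBE libraries, and the groups overlapped because of vehicle library 3. Its log2 fold change was -0.84 ± 0.52, with an interval from -2.03 to 0.35 (edgeR, adjusted p = 0.999). With 1 library left out, LRG1 ranged from 1.07 (without SADBE library 2) to 2.57 (without vehicle library 3), and STAT6 from -1.23 (without vehicle library 3) to -0.29 (without vehicle library 1).

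SOCS3 in monkeys stood at 2.5, 4.72 and 1.66 CPM in vehicle and 1.76, 2.7 and 3.42 CPM in SADBE libraries. The ranges overlapped wholly, and the log2 fold change was -0.18 ± 0.63 with an interval from -1.62 to 1.26. SBNO2 stood at 1.23, 2.15 and 1.49 CPM in vehicle and 4.4, 2.47 and 1.9 CPM in SADBE libraries, with a log2 fold change of 0.85 ± 0.63 and an interval from -0.59 to 2.28. STAT3 stood at 62.5, 178 and 167 CPM in vehicle and 196, 205 and 188 CPM in SADBE libraries. On this scale STAT3 was the member without overlap between the groups, its log2 fold change was 0.53 ± 0.49, and in TPM the groups overlapped. The other members tested had log2 fold changes of -0.42 ± 0.49 (SOCS2), -0.48 ± 0.72 (CISH), -0.29 ± 0.53 (JAK1) and -0.55 ± 0.91 (JAK2). SOCS1 was not tested, with 6, 2 and 1 estimated counts in vehicle and 0, 0 and 3 in SADBE libraries. The upper ends of the intervals of SOCS3, CISH, JAK2, STAT3, SBNO2 and LRG1 lie beyond a 2-fold rise, which these data do not exclude for those members. A 2-fold fall is likewise not excluded for SOCS3, SOCS2, CISH, JAK1, JAK2 and STAT6. Their lower ends run from -1.49 (JAK1) to -2.63 (JAK2). Leaving out 1 library turned the sign of SOCS3 (up to 0.33, without vehicle library 2 or SADBE library 1) and of JAK2 (0.20, without vehicle library 1). It also moved STAT3 to 0.18 (without vehicle library 1), and none of these values was called.

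**Figure D5:**
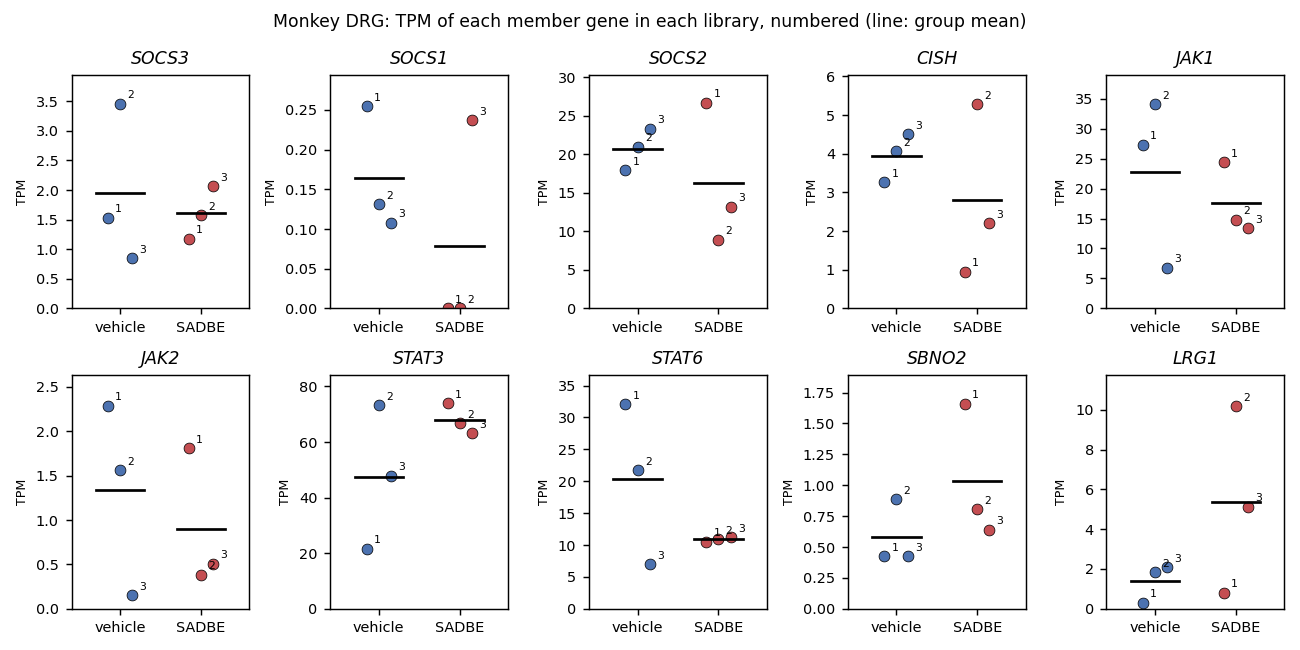
TPM (y axis) of the members in each of the 6 monkey libraries, by treatment (x axis), with library numbers beside the points and a line at each group mean. On this scale the groups overlap for all 10 members, STAT3 included.

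Of 84 other pathway genes tested in monkeys 0 were called by edgeR. An unadjusted p under 0.05 was held by 8 of them, beside 550 of all 17988 genes tested. The lists were drawn up with results of these data known, so nothing is read from the counts here. DESeq2 called 1 of 97, with 13 at an unadjusted p under 0.05. That gene was PTPN11, the phosphatase SHP2 that binds gp130 at the same site as SOCS3, which is named here after its values were seen. PTPN11 stood at 53.2, 34.9 and 31.6 CPM in vehicle and 174, 213 and 268 CPM in SADBE libraries, without overlap. Its log2 fold change was 2.44 ± 0.49 with DESeq2 (adjusted p = 0.00191) and 2.45 ± 0.45 with edgeR (adjusted p = 0.999). The vehicle libraries differed among themselves in neutrophil marker transcripts, with 3400, 92.4 and 356 TPM summed over 8 markers, against 38.2, 282 and 654 TPM in SADBE libraries. ELANE, MMP8 and CXCR2 were at 0 in SADBE library 1 and MMP8 was at 0 in vehicle library 3. Vehicle library 1, which had the highest sum, held the lowest LRG1, the lowest STAT3 and the highest STAT6. It also had the lowest neuron marker sum of the monkey libraries, 216 TPM. Its fibroblast and endothelial marker sums, 2370 and 102 TPM, were the highest. The part of these differences in the comparison was not tested.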

How the data were processed

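The authors deposited estimated counts and TPM per gene for each species, made with kallisto, and the build named is GRCm38, per the submitters' processing notes. The kallisto version, the strand setting and the monkey transcriptome are not given in the sources used here. Since kallisto shares out reads among like transcripts, close paralogs are uncertain. A row without a gene name (0.0785% to 0.186% of counts) was left out.

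Estimated counts were rounded and tested with edgeR 4.0.16 (R 4.3.3), using TMM scaling, filterByExpr (minimum count 10, minimum total 15), a robust quasi-likelihood fit and batch as a term in mice. SE was derived from the F statistic, and Benjamini-Hochberg adjusted p-values under 0.05, over all genes, were called. This left 15654 mouse and 17988 monkey genes. The scripts were tested on simulated data. Alternatives used DESeq2 1.42.0, limma 3.58.1 on log2(TPM + 1) and log2(TPM + 0.1), other scalings and filters, single batches, a replicate block, and fits leaving out libraries.

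Groups and batches come from the labels. Pairs of libraries in a group differed beyond sampling noise (chi-square a gene 22.1 or more in mice, 29 or more in monkeys), so none was a copy. The members and lists were chosen with earlier results of these data known. A gene of the pathway lists is not reported here. Genes were named by rule: all members, the called genes of each list up to the 5 lowest p in each direction, the 2 monkey members of lowest p, and the 5 genes most like Socs3. Coordinates come from GENCODE M21 and promoter windows from RefSeq (GRCm38.p6), in which 9 of 10 members were found by symbol.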

Additional observations from a re-analysis of the deposited data

Results flagged for a closer look

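In 20 groups of 4 libraries, each of a member, genotype and batch, the gap of the highest or lowest library to its neighbour was divided by the range and held against Dixon's 95% critical value, which chance alone passes in about 1 in 20 groups. In 3 groups it was passed. Cish stood at 32.7 CPM in flox library 4, against 12.1 to 14.9 CPM in the other flox libraries of batch 2. Jak2 stood at 17.5 CPM in knockout library 4, below the 32.7 to 35.6 CPM of the other knockout libraries of batch 1. Sbno2 stood at 12.2 CPM in flox library 5, against 7.93 to 8.14 CPM in the other flox libraries of batch 2, and this value was still below every knockout library.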

How the results depend on the processing

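Over 25 alternatives the count of members called in mice, 6 in the fit reported, ranged from 3 to 6, and from 5 to 6 when 1 library was left out. It was 3 in batch 1 alone. Socs3, Socs2 and Sbno2 were called in all 25, Jak1 and Lrg1 in all except batch 1 alone, and Stat3 in 11. As this contrast chose the members, these calls describe how the fits depend on settings and lend the differences no support. Of the other pathway genes named, Il31ra, Osmr, Ptpn1, Serpina3n, Il4ra, Pim3, Lcn2, Sprr1a and Oasl2 were called in all 25, while Egfr, Il6, Gfap, Fgl2, Bst2, Isg15, Pim1, Il2ra, Ccl11, Ccl24 and Arg1 were called in neither batch alone. Other pathway genes called fell from 38 to 17 without the batch term and to 15 in batch 1 alone (28 in batch 2 alone), and ranged from 28 to 42 when 1 library was left out. All genes called fell from 2423 to 564 without the batch term and to 273 in batch 1 alone, and ranged from 1587 (without knockout library 5) to 3108 when 1 library was left out. For the interaction, DESeq2 called 6 other pathway genes against 2, and 719 genes in all against 161. Leaving out 1 library gave 0 to 3 and 50 to 445. In monkeys DESeq2 called 1 other pathway gene and 28 genes in all, where edgeR called 0. The cause of these shifts was not tested. With the replicate number as a block, 6 mouse members and 0 monkey members were called. Libraries of the same number shared little (r = 0.01, -0.13, 0.10, 0.15, 0.03 and -0.07 in mice, 0.21, -0.31 and 0.23 in monkeys), so the numbers were not taken as pairs. Mouse library 3 and 5 and monkey library 3 correlated best with their own number. Precision is limited by 3 libraries a group in monkeys, by shallow knockout libraries in batch 1, and by few counts for genes such as Il6, Socs1, Il2ra and Ccl24.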
